A study of Homo sapiens with 24 samples.

Results

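The HOX genes of the HOXA, HOXB, HOXC, and HOXD clusters were examined for S100A8 and S100A9 peaks in chromatin. All protein-coding genes of the annotation whose symbol is HOXA, HOXB, HOXC, or HOXD with a number were taken, which gave 39 of the 20098 protein-coding genes on chromosomes 1 to 22 and X. A peak was counted for a cluster when its summit lay between the first and the last HOX gene or within 20 kb beyond them. It was counted for a promoter when its summit was at most 1500 bp upstream or 250 bp downstream of the transcription start site (TSS) of any protein-coding transcript of the gene. The rule uses gene symbols and no measured value, although it was set with earlier results of these data known.

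HOX genes encode homeodomain transcription factors that give cells of the embryo their position along the body axis and that stay active in region-specific patterns in adult tissues. Within a cluster, the genes follow each other in the order in which they act from head to tail. Anterior genes have low paralog numbers and posterior genes high ones. In cells where a cluster is silent it is held by Polycomb complexes, active segments are kept open by Trithorax-type methyltransferases, and CTCF marks borders between the segments. The clusters are rich in CpG dinucleotides and are transcribed on both strands, with long noncoding RNAs (lncRNAs) such as HOXA-AS3, HOTAIR, and HOXC-AS3 between the coding genes. S100A8 and S100A9 are small calcium-binding proteins, best known as a secreted heterodimer of myeloid and epithelial cells, and have no known DNA binding domain.

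The cells were MCF10A cells, an immortalized and nontransformed line of human breast epithelium, that express ER-Src, in which the v-Src oncoprotein is fused to the ligand-binding domain of the estrogen receptor. Stable lines carried S100A8 or S100A9 with a C-terminal Flag tag from a retroviral vector, in addition to the endogenous proteins. All cells carried ER-Src and 1 of the tagged proteins, and they received for 24 hours either 1 μM 4-hydroxytamoxifen (TAM), which activates Src and induces transformation, or ethanol (EtOH) as the vehicle. Protein-protein cross-linkers were applied before formaldehyde, so that proteins held on DNA through others can be recovered, and chromatin was precipitated with a Flag antibody. The groups were S100A8 in EtOH (2 libraries), S100A8 in TAM (3), S100A9 in EtOH (3), and S100A9 in TAM (3), and the labels call the replicates biological. ChIP from cells with untagged protein was not analyzed here, and each peak was called against the input of its own library.

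At a q value of at most 1e-07, the 5 EtOH lists held 1853 to 4609 peaks and the 6 TAM lists 21518 to 40735. Sequencing depth is unknown, since the deposited lists hold peaks and no read totals. A missing peak therefore shows only that none was called, and fewer peaks in a list cannot be told apart from shallower sequencing. Fold enrichment is the signal at a summit over the input of the same library, as the authors' peak caller gave it. It was used within a library, as a percentile among the peaks of that library, and was not tested between libraries.

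The sequences around the summits of 6 sites are shown. The HOXA4 and HOXA5 promoter sites are shown as examples of HOX promoters called in at least 4 libraries, and the others are, for each cluster, the site called in the most libraries, with ties in HOXC settled by the mean percentile of fold enrichment. Each is 101 bases of the plus strand of hg19, with 50 bases on either side of the summit. Capitals mark a match; the motifs searched, on either strand, were an ETS motif (CGGAAG), a KLF/SP1 motif (CCCCGCCC), a CREB motif (TGACGTCA), a HOX/PBX core (TGATNNAT), and the CTCF motif, along with an AP-1 motif (TGACTCA or TGAGTCA).
HOXA4 promoter (chr7:27170483-27170583): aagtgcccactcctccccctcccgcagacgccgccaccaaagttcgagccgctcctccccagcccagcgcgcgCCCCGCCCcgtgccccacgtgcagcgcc
HOXA5 promoter (chr7:27183385-27183485): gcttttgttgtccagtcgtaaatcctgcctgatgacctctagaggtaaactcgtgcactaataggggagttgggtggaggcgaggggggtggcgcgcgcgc
HOXA3 intron upstream of HOXA6 (chr7:27190587-27190687): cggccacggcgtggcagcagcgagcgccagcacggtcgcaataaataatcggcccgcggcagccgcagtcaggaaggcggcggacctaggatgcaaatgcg
HOXB9 coding exon (chr17:46703198-46703298): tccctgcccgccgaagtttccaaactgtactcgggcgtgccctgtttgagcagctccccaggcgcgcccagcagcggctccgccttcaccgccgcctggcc
HOXC6 intron upstream of HOXC8 (chr12:54399889-54399989): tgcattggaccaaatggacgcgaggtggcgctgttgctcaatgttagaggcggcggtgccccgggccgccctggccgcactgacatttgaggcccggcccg
HOXD3 intron (chr2:177005382-177005482): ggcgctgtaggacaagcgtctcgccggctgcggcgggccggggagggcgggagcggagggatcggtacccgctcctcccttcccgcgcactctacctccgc

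The HOXA4 window held a KLF/SP1 match 23 bp from its summit. None of the searched motifs was matched in the other windows shown. A match is only a run of letters and was not tested as a binding site.

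TAM-treated cells had more peaks than EtOH-treated cells in all 4 clusters. In the HOXA cluster (chr7:27112612-27259710, 11 genes over 147.1 kb with both flanks), S100A8 libraries had 0 and 1 peaks in EtOH and 14, 7, and 5 in TAM. S100A9 libraries had 1, 1, and 3 peaks there in EtOH and 7, 8, and 14 in TAM. Every TAM library lay above every EtOH library. The mean difference was 8.08 peaks (exact permutation test within the proteins, two-sided, p = 0.01, the smallest p that the 200 arrangements allow).

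In the HOXB cluster (chr17:46585888-46826112, 10 genes over 240.2 kb), the numbers were 1 and 0 for S100A8 in EtOH, 6, 5, and 3 for S100A8 in TAM, 1, 2, and 2 for S100A9 in EtOH, and 4, 9, and 9 for S100A9 in TAM. These groups did not overlap either, and the difference was 4.92 peaks (exact permutation test, p = 0.01). The HOXC cluster (chr12:54312615-54469814, 9 genes over 157.2 kb) had 1 and 2 peaks for S100A8 in EtOH, 8, 3, and 2 for S100A8 in TAM, 1, 0, and 0 for S100A9 in EtOH, and 5, 7, and 9 for S100A9 in TAM. One TAM library had no more peaks than the highest EtOH library, and the difference was 4.75 (exact permutation test, p = 0.02). This call was lost with every deposited peak (7.08 peaks, p = 0.06) and without the flanks beside the genes (4.08 peaks, p = 0.05, exact permutation tests). The HOXD cluster (chr2:176937449-177075635, 9 genes over 138.2 kb) held the fewest peaks, with 1 and 0 for S100A8 in EtOH, 5, 2, and 3 for S100A8 in TAM, 0, 0, and 1 for S100A9 in EtOH, and 1, 3, and 6 for S100A9 in TAM. The lowest TAM library and the highest EtOH libraries were tied there, and the difference was 2.92 (exact permutation test, p = 0.02).

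The TAM lists were longer as a whole, and no difference in the clusters' part of them was detectable at q of at most 1e-07. As a percent of the peaks of a library, the HOXA cluster held 0.0338 ± 0.0261% in the 5 EtOH libraries and 0.0325 ± 0.00845% in the 6 TAM libraries (means ± SD). The HOXB cluster held 0.0405 ± 0.0408% and 0.0217 ± 0.00835%, the HOXC cluster 0.0189 ± 0.0188% and 0.02 ± 0.00791%, and the HOXD cluster 0.00897 ± 0.0123% and 0.0117 ± 0.0048%. At this threshold, none of the shares differed by more than the spread between libraries (exact permutation tests, p = 0.73 for HOXA, 0.46 for HOXB, 0.93 for HOXC, and 0.69 for HOXD). When only the 1853 peaks with the lowest q value were taken from each list, the difference in number was −0.167 for HOXA, −0.5 for HOXB, −0.0833 for HOXC, and 0.333 for HOXD, and no call remained (exact permutation tests, p = 0.94, 0.4, 1.0, and 0.6). Lists of this length held few peaks in a cluster. S100A9 EtOH replicate 2, whose whole list has 1853 peaks, had 1, 2, 0, and 0 from HOXA to HOXD. With counts this low a call was hardly possible, so its absence cannot show equal shares. The shares depended on the threshold. With q at most 1e-10, the share was higher in TAM by 0.0237 percentage points for HOXB, against −0.0139 at 1e-07, and by 0.0105 for HOXD (exact permutation tests, p = 0.01 and 0.04). With every deposited peak, the share of HOXA differed by −0.0201 (exact permutation test, p = 0.03). Without S100A9 EtOH replicate 2, the HOXB difference at 1e-07 was −0.00188. Without S100A8 EtOH replicate 1, the p value of the difference in the number of peaks was 0.05 for HOXC and for HOXD in the same exact permutation test, and without S100A8 EtOH replicate 2 it was 0.05 for HOXD.

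**Figure D1:**
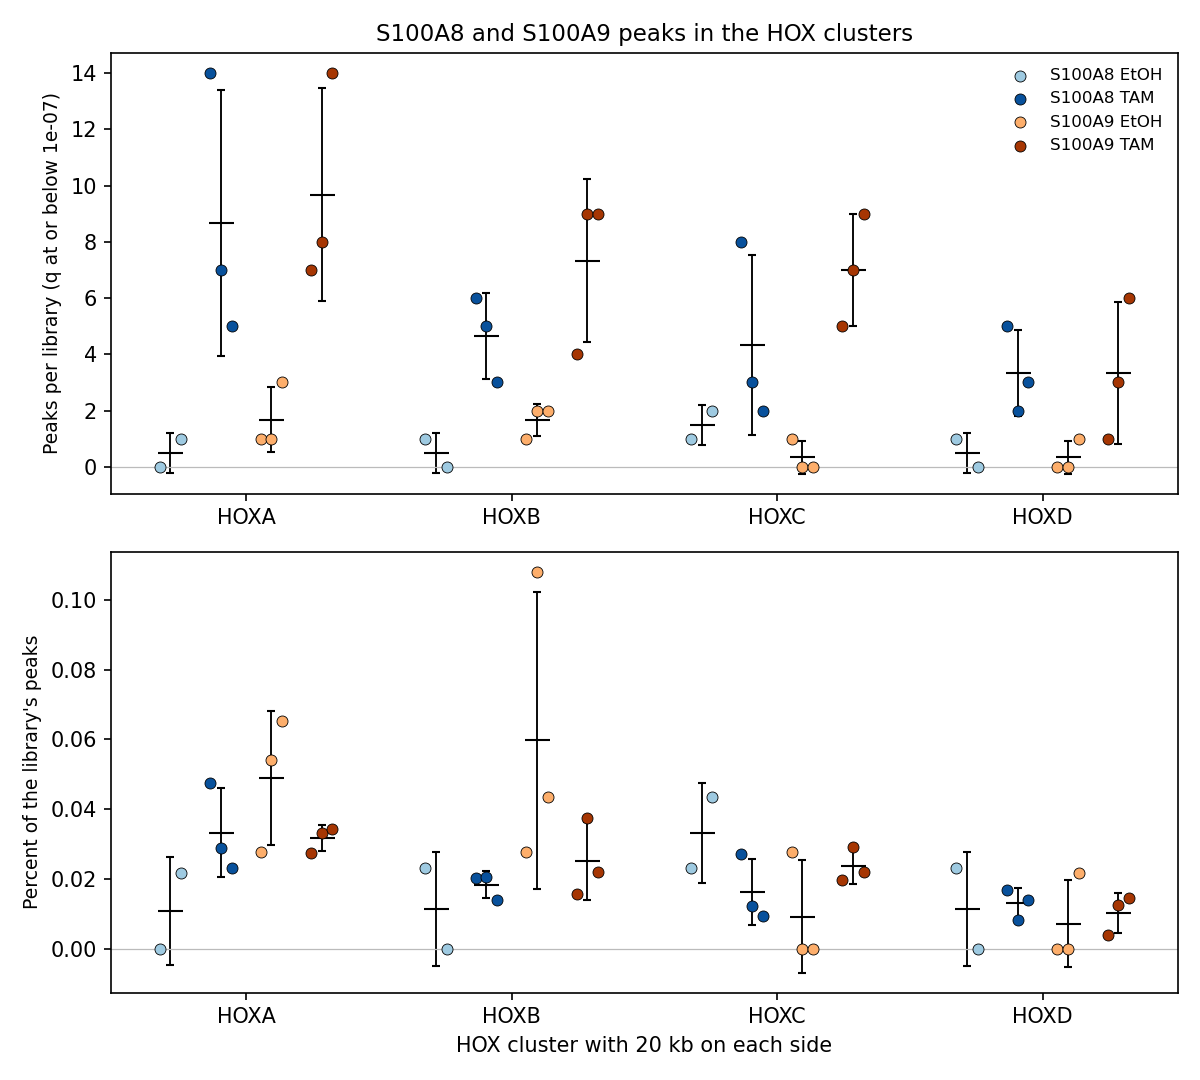
Peaks with q at or below 1e-07 in the 4 HOX clusters, as a number per library (top) and as a percent of all peaks of the library (bottom); points are libraries, horizontal marks are group means, and bars are SDs. TAM libraries held 5 to 14 peaks in HOXA against 0 to 3 in EtOH libraries, while the percentages of the treatments overlapped in every cluster.

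No difference between S100A8 and S100A9 was detectable in the clusters. In TAM, the mean number of peaks was 8.67 ± 4.73 (SD, n = 3) for S100A8 and 9.67 ± 3.79 (SD, n = 3) for S100A9 in HOXA, and 3.33 ± 1.53 and 3.33 ± 2.52 in HOXD. In HOXB it was 4.67 ± 1.53 and 7.33 ± 2.89, and in HOXC 4.33 ± 3.21 and 7.0 ± 2.0. The differences of S100A8 minus S100A9 were −1.0, −2.67, −2.67, and 0.0 from HOXA to HOXD (exact permutation tests, p = 0.8, 0.3, 0.3, and 1.0), and 3 against 3 libraries cannot give a p below 0.1.

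The cluster regions held peaks more densely than the genome in both treatments. Over the 4 regions together, the 5 EtOH libraries had 0.527 ± 0.197 peaks per 100 kb (mean ± SD), against 0.125 ± 0.0383 over chromosomes 1 to 22 and X. The 6 TAM libraries had 3.54 ± 1.47, against 0.907 ± 0.229. The ratio of the densities was 4.54 ± 1.88 in EtOH, with a range of 2.89 to 7.2, and 3.82 ± 1.04 in TAM, with a range of 2.69 to 5.0. It was above 1 in all 11 libraries. HOX peaks were of ordinary strength, since their median percentile of fold enrichment was between 34.6 and 72.9 in the single libraries.

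Promoters of HOX genes, in contrast, had a peak less often than protein-coding promoters as a whole, as a description without a test. A peak of q at most 1e-07 in at least 1 of the 11 libraries was present at 14 of the 39 HOX promoters (35.9%), compared with 60.2% of all protein-coding promoters. Each of these calls rested on its own peak, and no peak lay in the promoter windows of 2 HOX genes. The number of HOX promoters called was 0 and 1 for S100A8 in EtOH, 7, 4, and 3 for S100A8 in TAM, 1, 1, and 1 for S100A9 in EtOH, and 5, 8, and 10 for S100A9 in TAM. In the 5 EtOH libraries, 2.05 ± 1.15% of HOX promoters were called (mean ± SD), with a median of 11.2% over all promoters and 5.88% in the lowest library. In the 6 TAM libraries, these were 15.8 ± 6.77% and between 32.9 and 48.3%. The HOX percentage was the lower one in 11 of 11 libraries. With every deposited peak (q up to 0.05), 23 of the 39 HOX promoters were called in at least 1 library, compared with 73.4% of all promoters.

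**Figure D2:**
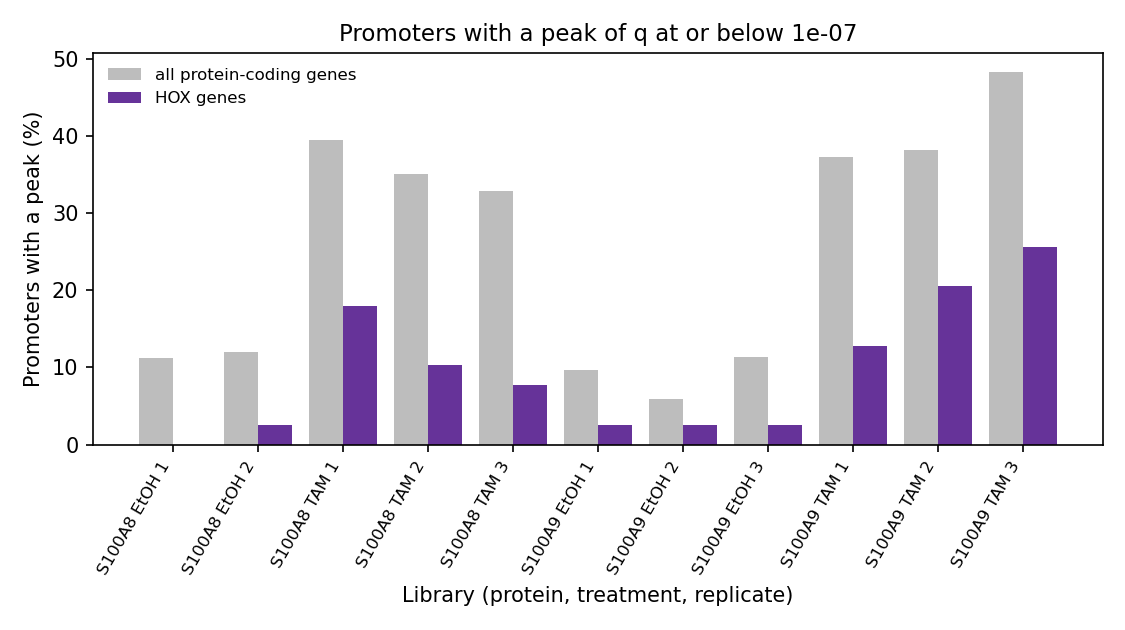
Percent of promoters with a peak of q at or below 1e-07 in each of the 11 libraries, for all protein-coding genes (gray bars) and HOX genes (purple bars). The HOX bar is the lower one in every library, with 0 to 1 promoters called in EtOH and 3 to 10 in TAM.

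Called and uncalled HOX promoters lay close in CpG content. The ratio of observed to expected CpG had a median of 0.592 over the 14 called and 0.562 over the 25 uncalled HOX promoters, with medians of 0.665 and 0.344 over all called and uncalled promoters. In the class with a ratio of at least 0.6, 82.7% of all promoters and 6 of 17 HOX promoters were called. In the class from 0.3 to 0.6, 54.0% of all promoters and 8 of 20 HOX promoters were called, and below 0.3, 17.2% and 0 of 2. Of 68 developmental homeobox genes outside the clusters, among them DLX, NKX, and PAX genes, 28 had a called promoter (41.2%).

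In at least 2 replicates of a condition, a promoter peak was present at 0 HOX genes for S100A8 in EtOH (all genes, 4.54%), at 3 for S100A8 in TAM (36.2%), at 1 for S100A9 in EtOH (5.62%), and at 8 for S100A9 in TAM (42.4%). The 3 genes of S100A8 in TAM included HOXA4 and HOXC13, and all 3 were among the 8 of S100A9 in TAM, which further held HOXA5, HOXB5, HOXC4, HOXC10, and HOXC11. Over both proteins, 8 HOX genes passed in TAM (all genes, 47.6%). Without S100A9 TAM replicate 2 or without S100A9 TAM replicate 3, which had the longest list, the number for S100A9 in TAM was 4 in place of 8. The gene of S100A9 in EtOH was HOXA4, and without S100A9 EtOH replicate 1 or replicate 2 no HOX gene passed in that condition.

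The called promoters were distributed unevenly over the clusters. In at least 1 library, 5 of 11 HOXA promoters, 2 of 10 HOXB promoters, 7 of 9 HOXC promoters, and 0 of 9 HOXD promoters had a peak. Compared with 60.2% of all protein-coding promoters, the share was higher in HOXC and lower in HOXA, HOXB, and HOXD. By this count, the lower share of HOX promoters as a whole thus did not hold for HOXC. In at least 2 replicates of a TAM condition, 4 of 9 HOXC promoters had a peak, which was not above the 47.6% of all genes. By position, 1 of 8 anterior genes (paralog numbers 1 to 3), 4 of 15 central genes (4 to 8), and 3 of 16 posterior genes (9 to 13) had a peak in at least 2 replicates of a TAM condition. Of all protein-coding genes, 47.6% had one. With the 5′ end of the gene as the only TSS, 13 of the 39 HOX promoters were called in at least 1 library, compared with 51.0% of all promoters, and 5 central genes passed in TAM. The number of libraries changed for 3 HOX genes, from 0 to 8 for HOXA6 and from 2 to 0 for HOXA9 and for HOXC9. These counts are small and were not tested.

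**Figure D3:**
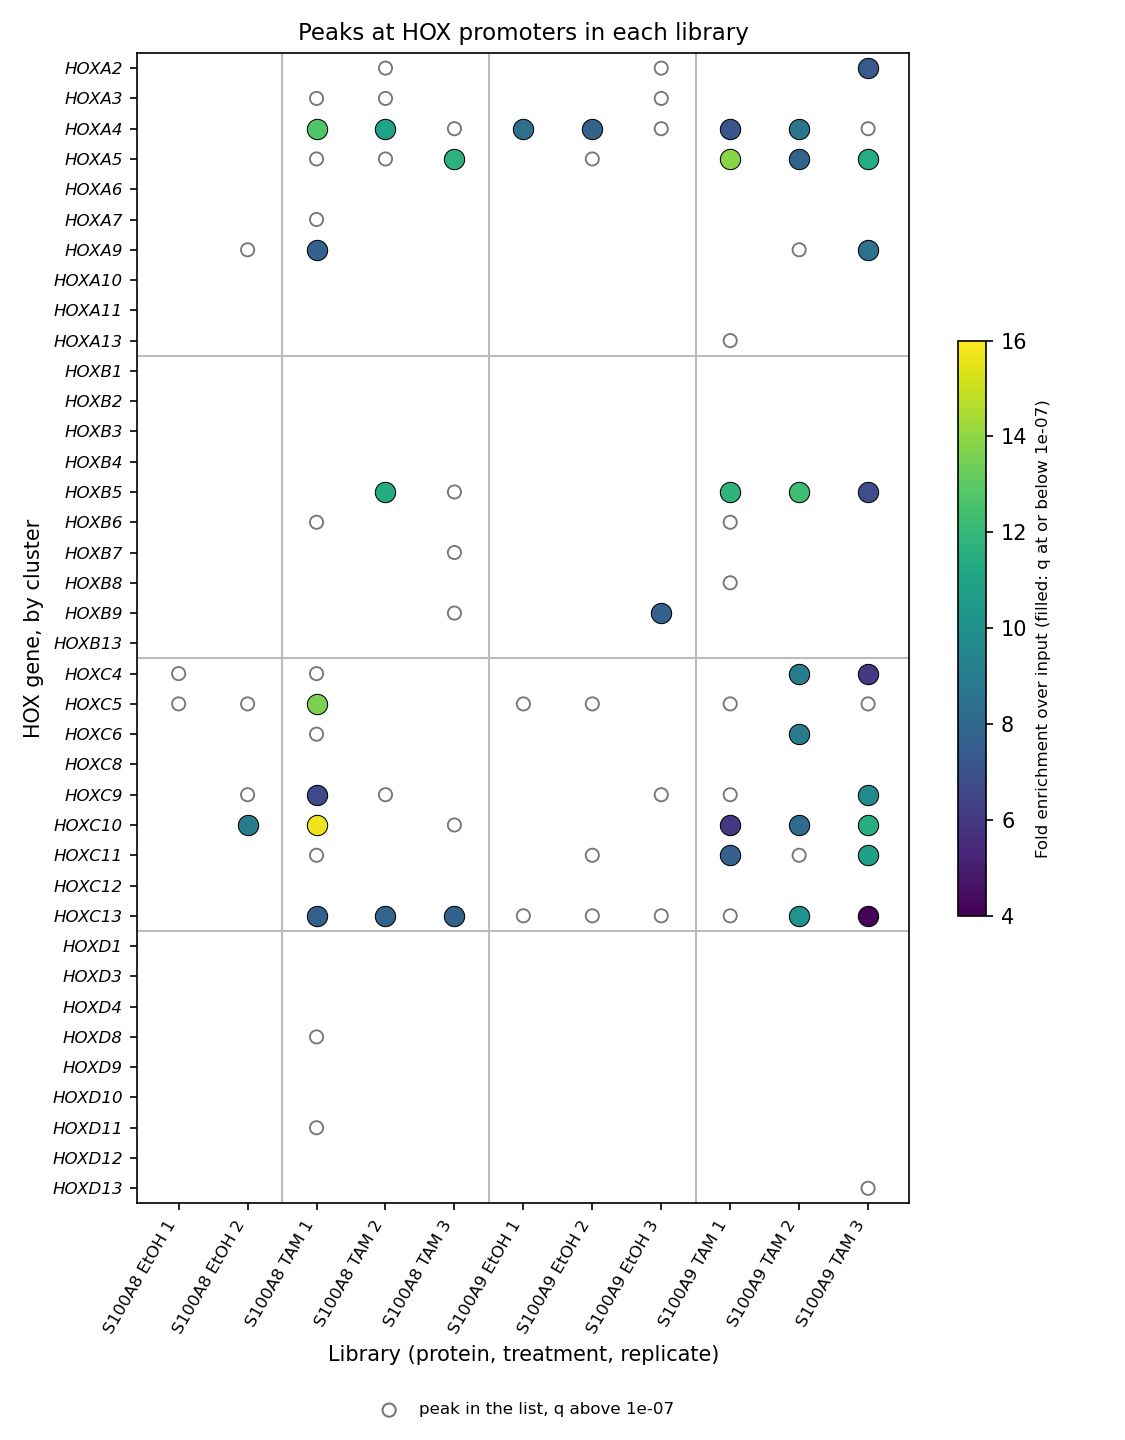
Peaks at HOX promoters (rows, by cluster) in the 11 libraries (columns). Filled circles are peaks with q at or below 1e-07, colored by fold enrichment over input, and open circles are peaks with a higher q value; where a promoter had several peaks, the one with the lowest q value is drawn. The HOXD rows hold no filled circle, and HOXA4, HOXA5, HOXB5, HOXC10, and HOXC13 hold 4 or more. Not every HOX gene is drawn.

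HOXA4, a central gene of vertebral patterning, was the promoter called in the most libraries (6 of 11) when the TSSs of protein-coding transcripts were used. With the 5′ end of the gene in their place, HOXA6 was called in 8. The fold enrichment at HOXA4 was 8.33 and 7.74 for S100A9 in EtOH replicates 1 and 2, 12.7 and 10.9 for S100A8 in TAM replicates 1 and 2, and 7.2 and 8.68 for S100A9 in TAM replicates 1 and 2. The lists of S100A8 TAM replicate 3, S100A9 EtOH replicate 3, and S100A9 TAM replicate 3 held promoter peaks of 5.82, 6.34, and 5.83 with a q value above 1e-07. The S100A8 EtOH lists held none. The peak of 5.83 (chr7:27169698-27169865) lay at another TSS of HOXA4, outside the site given next. At that site, S100A9 TAM replicate 3 had a peak of 3.69, also with a q value above 1e-07. The site (chr7:27170312-27170824) has its summit 134 bp upstream of the TSS, in an intron of the long HOXA3 transcripts and in a window with 74.6% G + C.

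HOXA5, a central gene known for its loss in breast cancers, was called in 4 TAM libraries and in no EtOH library. The fold enrichment was 11.7 in S100A8 TAM replicate 3 and 13.9, 7.75, and 11.4 in the 3 S100A9 TAM libraries. Promoter peaks of 3.9 and 2.96 in the other two S100A8 TAM libraries and of 4.6 in S100A9 EtOH replicate 2 had a q value above 1e-07. The site that contains this promoter (chr7:27182215-27183737) is 1523 bp wide, and all 6 TAM libraries had a peak of q at most 1e-07 in it. In S100A8 TAM replicates 1 and 2, the summits of those peaks were outside the promoter window.

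HOXB5, a central gene with roles in the enteric nervous system and blood vessels, was called in 4 TAM libraries and in no EtOH library. Its fold enrichment was 11.3 in S100A8 TAM replicate 2 and 11.8, 12.3, and 6.82 in the S100A9 TAM libraries, and the EtOH lists held no peak there at any q value. A peak of 4.97 in S100A8 TAM replicate 3 had a q value above 1e-07. It was the only HOXB site at a HOX promoter.

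HOXC10, a posterior gene of lumbar and hindlimb patterning, was called in S100A8 EtOH replicate 2 with a fold enrichment of 8.94. In TAM, it was called with 15.7 in S100A8 replicate 1 and with 5.92, 8.14, and 11.5 in the S100A9 libraries. The value of 15.7 was at percentile 99.5 of all peaks in that list, and a peak of 6.65 in S100A8 TAM replicate 3 had a q value above 1e-07. The site lay upstream of the HOXC10 TSS, in an exon of the antisense lncRNA HOXC-AS3.

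HOXC13, a posterior gene required for hair and nail keratins, was called in 5 TAM libraries and in no EtOH library. The fold enrichment was 7.62, 7.88, and 7.71 for S100A8 in TAM and 10.2 and 4.11 for S100A9 in TAM replicates 2 and 3. S100A9 TAM replicate 1 and the 3 S100A9 EtOH lists held peaks between 4.24 and 4.74 with a q value above 1e-07. The site lay upstream of the TSS, in an intron of HOXC13-AS.

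Of the 39 promoters, 10 were called in at least 2 libraries and were tested one by one, together with all other protein-coding genes called as often. None of the 10 passed. The share of libraries called was higher in TAM by 0.833 for HOXC13 (exact permutation test, p = 0.04, Benjamini-Hochberg adjusted p = 0.191) and by 0.667 for HOXA5 and for HOXB5 (p = 0.06, adjusted p = 0.244 in the same exact permutation test). It was higher by 0.333 for HOXA4 and by 0.417 for HOXC10 (adjusted p = 0.641 and 0.546, exact permutation test). The differences for this pair ranged from 0.167 to 0.5 and from 0.167 to 0.667 with 1 library left out at a time, and were lowest without S100A9 EtOH replicate 3 for HOXA4 and without S100A8 EtOH replicate 1 for HOXC10. Over all 10647 genes tested, 0 (0.0%) had an adjusted p under 0.05 in either direction, and 2230 (20.9%) were higher in TAM at an unadjusted p under 0.05. HOXC13 was among these.

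The other called promoters had fewer peaks. HOXA9, HOXC9, HOXC11, and HOXC4 were called in 2 TAM libraries each. HOXA2, HOXC5, HOXC6, and HOXB9 were called in 1 library each. HOXA2, which patterns the hindbrain, had a peak of 7.31 in S100A9 TAM replicate 3, HOXC6 one of 8.93 in S100A9 TAM replicate 2, and HOXC5 one of 13.6 in S100A8 TAM replicate 1. HOXB9, which takes part in mammary gland development, was the only HOX promoter called in EtOH and not in TAM. Its peak of 7.66 in S100A9 EtOH replicate 3 lay 229 bp downstream of the TSS, near the edge of the window. That peak was part of a wider site in the HOXB9 coding exon (chr17:46702736-46703591), which was also called in 4 TAM libraries. The summits in those TAM libraries were outside the promoter window, so HOXB9 was not a gene with peaks in EtOH only. At HOXC5, weaker peaks, with a q value above 1e-07, were present in 4 of 5 EtOH lists, at 4.04, 6.39, 5.68, and 6.51. Their summits lay upstream of the TSS for S100A8 and downstream of it for S100A9, so they were not at the same position. HOXC13 had such weaker peaks in 3 EtOH lists.

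At the TSSs of protein-coding transcripts, no peak of q at most 1e-07 was called for the other 25 genes. Among them, HOXA3, HOXA7, HOXA13, HOXB6, HOXB7, HOXB8, HOXD8, HOXD11, and HOXD13 had a weaker peak in 1 to 3 lists. No list held any peak in these windows for 16 genes, which were HOXA6, HOXA10, HOXA11, HOXB1, HOXB2, HOXB3, HOXB4, HOXB13, HOXC8, HOXC12, HOXD1, HOXD3, HOXD4, HOXD9, HOXD10, and HOXD12. HOXA6 is among them because its protein-coding transcript starts 2829 bp downstream of the annotated 5′ end of the gene, and a window at that 5′ end held peaks in 10 of 11 lists. HOXA10 had a site called in 4 TAM libraries (chr7:27219431-27219702) with its summit 362 bp downstream of a TSS, beyond the 250 bp of the window.

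Most sites in the clusters lay outside the promoters. Peaks of at least 2 replicates of a condition were merged over the conditions into 31 union sites, of which 9 lay in HOXA, 11 in HOXB, 7 in HOXC, and 4 in HOXD. This is 6.12, 4.58, 4.45, and 2.89 sites per 100 kb, and 4.54 over the 4 clusters, compared with 0.999 over chromosomes 1 to 22 and X and 1.48 within 20 kb of protein-coding genes. Around the 5′ end of a HOX gene, a median of 6 union sites lay within 50 kb, compared with 2 for all protein-coding genes and 1.5 for the 68 other developmental homeobox genes. Of all protein-coding genes, 12.9% had 6 or more. The 25 HOX genes without a called promoter had a median of 4, compared with 1 for the 7995 genes of the genome without one. Neighboring HOX genes share these sites and are not independent.

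Of the 31 sites, 10 (32.3%) had a summit in a promoter window, 9 of them of a HOX gene, compared with 31.1% of all 30322 union sites. No EtOH library had a peak at 22 of them (71.0%, all sites 68.9%). All 6 TAM libraries had a peak at 2 of them (6.45%, all sites 14.3%). Without S100A9 TAM replicate 3 the HOXB cluster had 6 sites and the HOXC cluster 4, and without S100A9 TAM replicate 2 the HOXB cluster had 7.

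**Figure D4:**
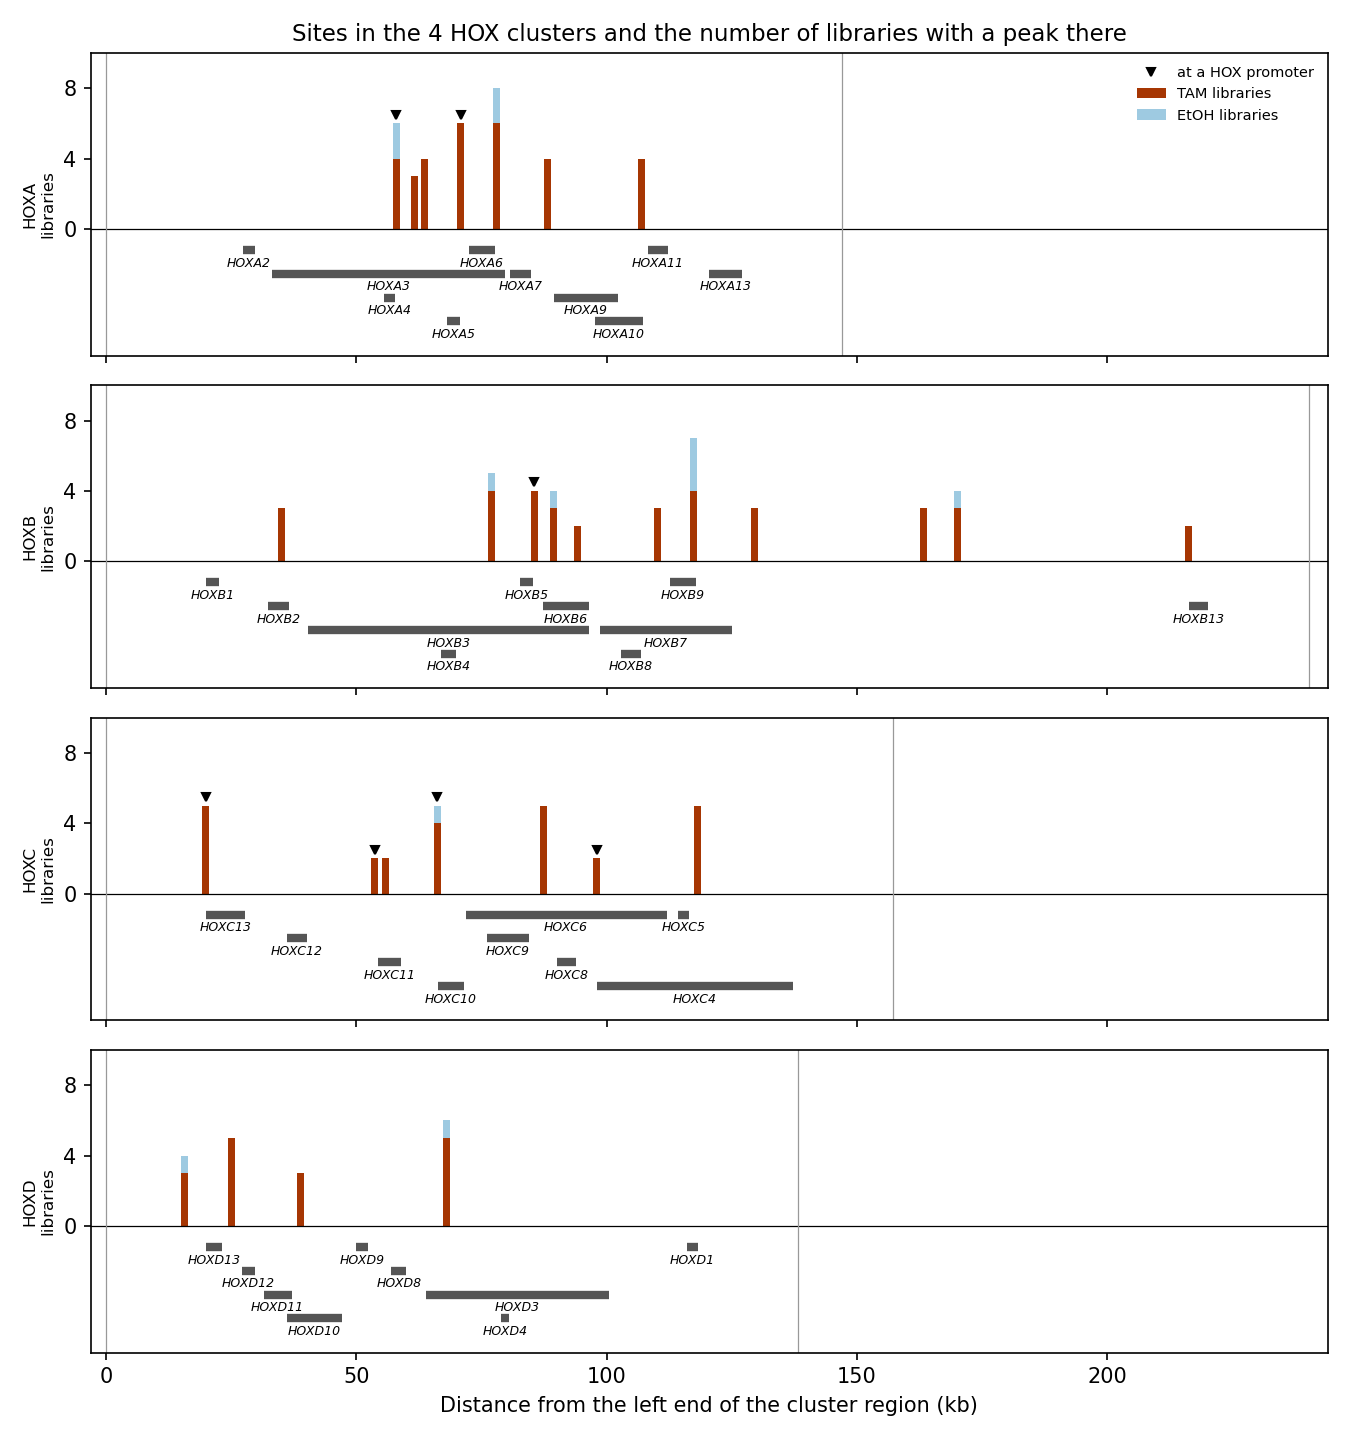
Union sites along the 4 HOX cluster regions, drawn to scale in kb from the left end of each region (vertical lines mark its ends). Bars give the number of libraries with a peak at the site, in TAM (brown) and in EtOH (light blue), triangles mark sites at HOX promoters, and gray bars are HOX gene bodies. Not every site and gene is drawn. The tallest bar, with 8 libraries, stands in HOXA between the HOXA5 and HOXA7 genes, and no site was found around HOXD4 or HOXD1.

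The site called in the most libraries lies in HOXA (chr7:27190167-27190764), in an intron of the long HOXA3 transcripts and an exon of the antisense lncRNA HOXA-AS3. Its summit is 415 bp upstream of the annotated 5′ end of HOXA6, so that it counts as a promoter site there and not under the TSSs of protein-coding transcripts. Its fold enrichment was 8.01 in S100A8 EtOH replicate 2 and 8.81 in S100A9 EtOH replicate 3. In TAM it was 8.49, 8.48, and 9.45 for S100A8 and 14.9, 9.87, and 12.8 for S100A9. The lists of S100A8 EtOH replicate 1 and S100A9 EtOH replicate 1 held weaker peaks of 5.19 and 6.89, so that 10 of 11 lists had a peak there and only S100A9 EtOH replicate 2, the shortest list, had none.

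In HOXB, the site called in the most libraries (chr17:46702736-46703591) lies in the coding exon of HOXB9, with its summit 472 bp downstream of the TSS and thus outside the promoter window. It was called in 3 EtOH libraries, with a fold enrichment of 7.86 for S100A8 replicate 1 and 8.85 and 7.66 for S100A9 replicates 2 and 3. In TAM it was called with 10.3 and 8.04 in S100A8 replicates 1 and 2 and with 9.9 and 6.0 in S100A9 replicates 2 and 3. EtOH and TAM values overlapped at this site. In HOXD, the most frequent site (chr2:177005120-177005747) lies in an intron of HOXD3, 3747 bp downstream of the nearest TSS. Its fold enrichment was 8.79 in S100A8 EtOH replicate 1, 7.15, 10.3, and 13.6 for S100A8 in TAM, and 5.99 and 11.9 for S100A9 in TAM replicates 2 and 3. The 3 S100A9 EtOH lists and S100A9 TAM replicate 1 held weaker peaks of 5.44 to 6.85.

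In HOXC, 4 sites were called in 5 libraries each. They were the promoter sites of HOXC10 and HOXC13, a site in an intron of HOXC6 upstream of HOXC8 (chr12:54399810-54400204), and a site in an intron of HOXC4 (chr12:54430635-54431021). The HOXC6 intron site was called in all 3 S100A8 TAM libraries and 2 S100A9 TAM libraries, and the HOXC4 intron site in 2 and 3. A pair of HOXC sites (chr12:54366145-54366382 and chr12:54368159-54368671) lay in introns of HOTAIR, the lncRNA transcribed against HOXC11, and was called at q of at most 1e-07 in S100A9 TAM replicates 1 and 3. At the second of the pair, weaker peaks were present in S100A8 EtOH replicate 1 (5.09), S100A8 TAM replicate 1 (6.39), and S100A9 TAM replicate 2 (6.95), and at the first in S100A9 TAM replicate 2 (6.55). The promoter site that belonged to no HOX gene under the window (chr7:27219431-27219702) lies in an exon of HOXA10 near the TSS of a readthrough gene and was called in 4 TAM libraries.

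The sites outside promoters were rich in G + C and in CpG. In windows of 100 bp on either side of the summit, the 21 HOX sites outside promoters had a median G + C of 62.2% and a median ratio of observed to expected CpG of 0.773. The 20887 such sites of the genome had 52.7% and 0.296, and the 9435 promoter sites of the genome had 67.2% and 0.855. The AP-1 motif was present at 3 of the 21 sites (14.3%), compared with 34.6% of such sites in the genome. The ETS motif was present at 5 (23.8%, genome 7.0%) and the CTCF motif at 3 (14.3%, genome 13.1%). The KLF/SP1 motif, the CREB motif, and the HOX/PBX core were not matched at these 21 sites, and such sites of the genome held them at 4.2, 0.503, and 8.2%.

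At the 10 promoter sites of the clusters, the CTCF motif was matched at 3 (promoter sites of the genome, 6.76%), the ETS motif at 3 (genome 27.1%), and the KLF/SP1 motif at 2 (genome 24.5%). The CREB motif was matched at 1 (genome 2.68%), the HOX/PBX core at 1 (genome 1.81%), and the AP-1 motif at none (genome 6.38%). These numbers of sites are a description and were not tested. Some depended on the window. With 200 bp on either side, the HOX/PBX core was matched at 4 of the 10 promoter sites (genome 3.87%). Outside promoters, the CTCF motif was at 4.76% of HOX sites with 50 bp (genome 11.2%) and at 19.0% with 200 bp (genome 14.0%). The AP-1 motif stayed less frequent and the ETS motif more frequent than in the genome there at both widths.

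Lists of genes that act with or on the clusters were compared with the 60.2% of all protein-coding promoters that were called in at least 1 library. The lists were not matched for CpG content, and 82.7% of promoters with a CpG ratio of at least 0.6 were called. Of the 9 TALE homeodomain cofactors with which HOX proteins bind DNA, 8 had a promoter peak in at least 1 library (88.9%). PBX3 was called in all 6 TAM libraries and no EtOH library, and MEIS1 in 6 TAM and 3 EtOH libraries. MEIS2 had peaks in 4 of the EtOH libraries and in 3 of the TAM libraries. Of the 30 Polycomb genes, 29 were called (96.7%), and MTF2, which helps to bring a Polycomb complex to CpG islands, was called in all 11 libraries. Of the 16 genes of Trithorax complexes, H3K4 and H3K79 methylation, and H3K27 demethylation, all 16 were called. RBBP5, a core subunit of the Trithorax-type methyltransferase complexes, was called in 6 TAM and 4 EtOH libraries. Of the 9 retinoic acid receptor and CDX genes, 4 were called (44.4%, below the share of all promoters), and CDX1, CDX2, and CDX4 were not. Of the 6, 26, 16, and 4 genes of these lists that could be tested, none passed the test of TAM against EtOH, as none did of all 10647 genes (0.0%).

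Of 14 genes in the neighborhood of the clusters, 8 were called (57.1%, all promoters 60.2%). The genes next to the cluster ends were SKAP2, called in 4 TAM libraries, and EVX1, called in none, beside HOXA, and SKAP1, called in none, and TTLL6, called in 2 TAM libraries, beside HOXB. Beside HOXC they were CALCOCO1, called in 4 TAM and 1 EtOH library, and SMUG1, called in none. Beside HOXD they were EVX2, a homeobox gene 8.8 kb from HOXD13 and called in none, and MTX2, called in 4 TAM and 1 EtOH library. ATP5MC2, a mitochondrial ATP synthase subunit gene farther from HOXC, was called in 6 TAM and 4 EtOH libraries.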

How the data were processed

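Peak lists of Flag ChIP-seq in MCF10A ER-Src cells were analyzed, with 11 libraries grouped by protein and treatment from the labels. Per the labels and methods, reads had been aligned to hg19 by Bowtie2, and the authors called peaks library by library with MACS2, each against its own input (versions not given in the sources used here). Replicates were not pooled. The ratio in the deposited lists is the fold enrichment of a peak over input, computed by the authors with MACS2. The −log10 q values were also given by the authors' peak calling, and the deposited lists reach down to q = 0.05. Read numbers were not part of the lists, so that depth is unknown and no counting interval is given.

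Peaks were kept at q ≤ 1e-07 and on chromosomes 1 to 22 and X. Genes and TSSs were those of protein-coding transcripts of GENCODE 44 on GRCh37. Peaks of a condition were merged at an overlap of 1 bp or more, kept with at least 2 replicates, and merged over conditions. Treatments were compared by exact permutation within each protein (200 arrangements, two-sided, with the smaller tail doubled). The genes called in at least 2 libraries were tested genome-wide in the same way, with Benjamini-Hochberg adjustment. These p values measure the spread between the libraries. Counts over gene lists and motifs were described without a test. Python 3.11.15, numpy 2.4.6, pandas 2.3.3, and matplotlib 3.10.9 were used, and the permutation test was tested on simulated calls.

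HOX genes called in at least 4 libraries, single exceptions behind a count, nonpromoter sites called in at least 6 libraries, list genes with promoter peaks in at least 2 replicates of both EtOH conditions, and the genes next to the clusters were named by rule. PBX3, MEIS1, the CDX genes, the tied HOXC sites, and the HOTAIR sites were named after their values were seen. The members, lists, and alternatives were chosen with earlier results of these data known. No pairing of EtOH and TAM libraries by replicate number was visible in the promoter calls. Calls of the same-numbered libraries deviated from their group means with correlations of −0.0162 to 0.0117 over 5 pairs. With so few libraries in a group, this cannot show that same-numbered libraries were prepared separately, and the test with the replicate number as a block is given in the closing section. Some items that the rules name, among genes and sequences, are not reported here, and counts include them. The closing section gives the alternatives that moved a result, except for the motif windows, which are given with the motifs.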

Additional observations from a re-analysis of the deposited data

How the results depend on the processing

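Depth limits all counts, since peak numbers rise with reads and the lists hold no read totals. The main values are differences of TAM minus EtOH in peaks per cluster (8.08, 4.92, 4.75, and 2.92 for HOXA, HOXB, HOXC, and HOXD) and in percent of library peaks (0.00258, −0.0139, −0.00129, and 0.00233), HOX genes with promoter peaks in at least 2 replicates (0, 3, 1, and 8 for S100A8 EtOH, S100A8 TAM, S100A9 EtOH, and S100A9 TAM), the same in TAM by position (1 anterior, 4 central, 3 posterior), and union sites (9, 11, 7, and 4). The cause of the changes below was not tested, except where fewer peaks, libraries, or replicates enter by construction.

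With every peak as deposited, the HOXC difference was 7.08 peaks (exact permutation test, p = 0.06) and the HOXA percent difference was −0.0201 (exact permutation test, p = 0.03). The promoter counts became 1 for S100A8 EtOH, 8 for S100A8 TAM, and 4 for S100A9 EtOH, with 2 anterior and 5 posterior genes, and HOXA and HOXC had 25 and 16 union sites. With q ≤ 1e-10, the percent difference was 0.0237 for HOXB (exact permutation test, p = 0.01) and 0.0105 for HOXD (p = 0.04 in the same exact test). The promoter count was 0 for S100A9 EtOH and 4 for S100A9 TAM, and HOXB, HOXC, and HOXD had 4, 4, and 1 union sites.

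With the 1853 top peaks by q of every library, the peak differences were −0.167, −0.5, −0.0833, and 0.333 from HOXA to HOXD, the HOXA percent difference was −0.00899, and the S100A8 minus S100A9 difference in HOXC was 0.667. The promoter counts of S100A8 TAM, S100A9 EtOH, and S100A9 TAM, the counts of anterior, central, and posterior genes, and the union sites of all 4 clusters were then 0. The share of libraries called at HOXA4 and HOXC10 was then lower in TAM, by −0.167 and −0.083.

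Without flanks beside the genes, the HOXC difference was 4.08 (exact permutation test, p = 0.05). With the replicate number as a block, the peak differences were 9.0, 5.33, 5.33, and 3.0 from HOXA to HOXD (exact sign flips, p = 0.0625, the smallest that 5 pairs allow), and the HOXC percent difference was 0.000468. Promoter windows reaching 1000 bp in both directions from a TSS gave 6 genes for S100A8 TAM, 2 for S100A9 EtOH, and 5 posterior genes. Windows from 2500 bp upstream to 500 bp downstream gave 8 for S100A8 TAM, 2 anterior genes, and 6 posterior genes. With the 5′ end of the gene as the only TSS, they were 4 for S100A8 TAM, 9 for S100A9 TAM, and 5 central genes, with HOXA6 called in 8 libraries and HOXA9 and HOXC9 in none. Peak overlap in place of the summit gave 4 for S100A8 TAM. HOXA and HOXB had 11 and 12 union sites with 50 kb flanks, and HOXA had 10 when merging required an overlap of 0.5 of the shorter region. With every replicate required, the counts were 0 for S100A9 EtOH, 3 for S100A9 TAM, and 2 for central genes, and the union sites were 3, 2, 4, and 2. With at least 1 replicate, the counts were 1 for S100A8 EtOH, 9 for S100A8 TAM, 2 for S100A9 EtOH, 2 anterior, and 5 posterior, and HOXA and HOXC had 23 and 16 union sites.

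With 1 library left out at a time, the peak differences ranged from 6.75 to 9.0 in HOXA, 4.5 to 5.75 in HOXB, 3.83 to 5.33 in HOXC, and 2.25 to 3.5 in HOXD. The percent differences ranged from −0.00284 to 0.008 in HOXA, −0.0219 to −0.00188 in HOXB, −0.00636 to 0.00378 in HOXC, and −0.00345 to 0.00811 in HOXD. The S100A8 minus S100A9 difference ranged from −3.67 to 1.17 in HOXA, −4.33 to −1.83 in HOXB, −4.5 to −1.5 in HOXC, and −1.17 to 1.33 in HOXD. The promoter counts ranged from 0 to 1 for S100A9 EtOH and from 4 to 8 for S100A9 TAM, and union sites from 6 to 11 in HOXB and from 4 to 7 in HOXC. The count of genes with an adjusted p under 0.05 was 0 under all 20 alternatives tried for it, although the sign flips of the block could not have given one.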

Other observations

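The sites left wide stretches of each cluster empty. The longest distance between neighboring union sites, or from a site to the outer end of the last gene, was 33.6 kb in HOXA, with the HOXA4 promoter site at its right end, and the whole HOXA2 gene lay inside it. It was 45.8 kb in HOXB, in the interval between HOXB9 and HOXB13, with no whole HOX gene inside, and 33.3 kb in HOXC, where it held HOXC12. In HOXD, the longest stretch was 49.9 kb, from the HOXD3 intron site to the end of the HOXD1 gene, and it held HOXD4 and HOXD1.

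Among all protein-coding genes, 2746 promoters (13.7%) had a peak in each of the 6 TAM libraries, and no HOX promoter did at the TSSs of protein-coding transcripts, while HOXA6 did at the 5′ end of the gene. At the TSSs of protein-coding transcripts, the most TAM libraries at a HOX promoter were 5, as at HOXC13. The difference between the S100A8 effect and the S100A9 effect of TAM on the number of peaks was 0.167 in HOXA, −1.5 in HOXB, −3.83 in HOXC, and −0.167 in HOXD (exact permutation tests within the treatments, p = 0.98, 0.5, 0.13, and 1.0).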
